A study of Mus musculus with 12 samples.

Results

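A set of 10 eicosanoid synthesis genes was followed in alveolar macrophages of bleomycin-treated mice: Pla2g4a, Alox5, Alox5ap, Lta4h, Ltc4s, Ptgs1, Hpgds, Ptges, Ptges3 and Tbxas1. They were chosen by name as synthesis enzymes (and 1 helper protein) of the leukotriene and prostaglandin pathways, with earlier results of these data known, and all 10 were found among the 26855 genes of the count table. All 10 also passed the filter on low counts, which left 12625 genes for testing. Eicosanoids are signalling lipids made from arachidonic acid, which cytosolic phospholipase A2 (Pla2g4a) releases from membranes. In the leukotriene branch, 5-lipoxygenase (Alox5) and its activating protein (Alox5ap, also called FLAP) make leukotriene A4, which Lta4h converts to leukotriene B4 and Ltc4s to leukotriene C4. In the prostanoid branch, cyclooxygenase 1 (Ptgs1) makes prostaglandin H2, which Hpgds converts to prostaglandin D2, Ptges and Ptges3 to prostaglandin E2, and Tbxas1 to thromboxane A2. Alveolar macrophages are known as a source of leukotrienes and prostanoids in the lung.

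The study sorted alveolar macrophages from lavage fluid of mice, 14 days after bleomycin, a drug used to injure the lung and cause fibrosis. Smart-seq, a full-length cDNA method, gave 12 libraries, whose titles place 4 each in UPBIG, UPSMALL and DOWN. Per the study's design text, a size filter split the lavage cells into a fraction enriched in cells called BAAMs and one poor in them, and sorting gates were set on side scatter and on BODIPY, a dye that stains neutral lipid, as high, intermediate or low. No label ties a title to a fraction or gate, so the groups are called by their titles. Every group was exposed to bleomycin, so no untreated mice stand beside them, and the labels used here give no strain, age or dose. The labels do not say that libraries of 1 group came from separate mice, so each p-value measures the spread between these libraries, which may be technical. Library totals ran between 17109669 and 23282621 counts.

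By level per kilobase of exon, the 10 genes covered a wide range, in an order that was fixed at its top and bottom but not in its middle. Alox5ap averaged 701 CPM per kilobase over the 12 libraries (CPM, counts per 1000000 of the TMM-scaled library total), and Ltc4s averaged 158. Ptges3, a widely expressed co-chaperone that also acts as a prostaglandin E synthase, averaged 61.5 CPM per kilobase. These 3 held the top places, in this order, in all 12 libraries. A middle set followed closely: Ptgs1 at 10.4, Alox5 at 7.56, Tbxas1 at 7.32, Hpgds at 6.70 and Lta4h at 5.15 CPM per kilobase. Within that set neighbours did not separate beyond their spread, since Alox5 exceeded Tbxas1 in only 5 of 12 libraries, Tbxas1 exceeded Hpgds in 8, and Hpgds exceeded Lta4h in 7. Ptgs1 exceeded Alox5 in 10 of 12. Length here was that of all annotated exons of a gene joined, not of an expressed transcript (9094 bases for Tbxas1, 3884 for Ptgs1). Without division by length, Tbxas1 averaged 72.2, 72.0 and 55.4 CPM in UPBIG, UPSMALL and DOWN. Ptgs1 then averaged 33.1, 43.7 and 44.1 CPM, so the order of the middle set depends on the length used. Pla2g4a, at 3.24, and Ptges, at 0.510 CPM per kilobase, were ninth and last in all 12. Alox5ap alone made up 69.1% ± 2.18 of the summed level per kilobase of the 10 genes in UPBIG, 73.5% ± 3.09 in UPSMALL and 75.5% ± 2.07 in DOWN (SD, n = 4 each), given as a description.

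**Figure D1:**
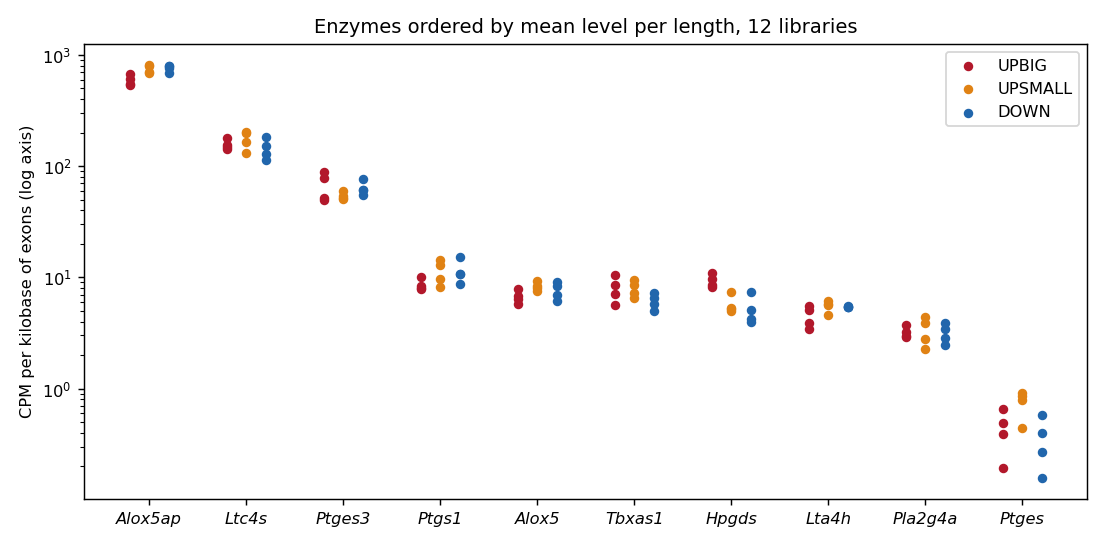
Level of each of the 10 genes per kilobase of exon (CPM per kilobase, log axis) in each of the 12 libraries, coloured by group and ordered by the mean. Alox5ap (mean 701) stands above Ltc4s (158) and Ptges3 (61.5) in every library, and Ptges (0.510) is lowest in every library.

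At the step of arachidonate release, no difference between groups passed the test. Pla2g4a (chromosome 1, 149829618 to 149961290, minus strand, mm10 as are all positions here) had 18.6, 24.0, 20.7 and 18.8 CPM in UPBIG libraries, 28.2, 24.9, 17.7 and 14.6 CPM in UPSMALL libraries and 21.9, 18.3, 24.7 and 15.8 CPM in DOWN libraries. The 3 groups overlapped. The log2 fold change of UPBIG over DOWN was 0.027 ± 0.20 (SE), with a 95% interval of −0.37 to 0.42 and an adjusted p of 0.952 from edgeR's quasi-likelihood test with Benjamini-Hochberg adjustment over all genes, which is the test behind every adjusted p in these results.

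In the leukotriene branch, Alox5ap was lower in UPBIG than in DOWN. Alox5ap (chromosome 5, 149264767 to 149288153, plus strand) holds the membrane protein that presents arachidonic acid to 5-lipoxygenase. It had 761, 786, 856 and 952 CPM in UPBIG libraries, 978, 999, 1162 and 1137 CPM in UPSMALL libraries and 1135, 983, 1075 and 1121 CPM in DOWN libraries. Every UPBIG library lay below every UPSMALL and every DOWN library, and UPSMALL overlapped DOWN. In sorted pools of this kind, fewer cells of a type and less RNA per cell cannot be told apart. The fold of UPBIG over DOWN was 0.778 (log2 −0.36 ± 0.11, adjusted p = 0.0255), and that of UPBIG over UPSMALL was 0.785 (log2 −0.35 ± 0.11, adjusted p = 0.0667), which missed the threshold of 0.05. UPSMALL over DOWN gave −0.013 ± 0.11, with a 95% interval of −0.23 to 0.20. The call against DOWN was lost when a single library was left out: the adjusted p was 0.0891 without UPBIG replicate 1, 0.0764 without UPBIG replicate 2, 0.0868 without DOWN replicate 1, 0.0624 without DOWN replicate 3 and 0.0656 without DOWN replicate 4. The log2 fold change stayed between −0.43 and −0.32 in all 12 such fits.

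The other leukotriene enzymes passed no test. Alox5 (chromosome 6, 116410077 to 116461178, minus strand), the 5-lipoxygenase itself, had 32.3, 23.7, 28.1 and 26.0 CPM in UPBIG libraries, 33.2, 34.5, 38.3 and 31.1 CPM in UPSMALL libraries and 28.7, 25.1, 34.3 and 37.1 CPM in DOWN libraries. Its groups overlapped, and the log2 fold change of UPBIG was −0.18 ± 0.15 over DOWN (adjusted p = 0.454) and −0.31 ± 0.15 over UPSMALL (adjusted p = 0.268). Lta4h (chromosome 10, 93453411 to 93484875, plus strand), the hydrolase of the leukotriene B4 arm, had 34.0, 31.3, 21.0 and 23.9 CPM in UPBIG libraries, 35.1, 37.0, 27.7 and 34.2 CPM in UPSMALL libraries and 33.0, 32.8, 33.0 and 33.9 CPM in DOWN libraries. The DOWN libraries varied least (SD 0.457 CPM), and replicates 3 and 4 of UPBIG were the lowest of the 12. The log2 fold change of UPBIG over DOWN was −0.27 ± 0.15 (adjusted p = 0.260).

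Ltc4s (chromosome 11, 50236461 to 50238616, minus strand), the synthase of the cysteinyl leukotriene arm, had 158, 145, 180 and 152 CPM in UPBIG libraries, 200, 133, 168 and 204 CPM in UPSMALL libraries and 184, 115, 154 and 131 CPM in DOWN libraries. All 3 groups overlapped. UPBIG over DOWN gave a log2 fold change of 0.12 ± 0.15 (adjusted p = 0.657), and UPSMALL over DOWN gave 0.27 ± 0.15 (adjusted p = 0.468). No source used here says whether counting used strand, so reads of Ltc4s cannot be told apart from those of an antisense gene over its exons. That gene, Gm26542, was listed with 216 counts over all libraries, against 38479 for Ltc4s. Antisense genes over exons of Alox5ap, Ptgs1 and Tbxas1 were listed with 84, 68 and 51 counts.

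In the prostanoid branch, Hpgds was higher in UPBIG than in both other groups. Hpgds (chromosome 6, 65117293 to 65144908, minus strand) is the haematopoietic prostaglandin D synthase. It had 54.4, 61.6, 52.3 and 69.7 CPM in UPBIG libraries, 33.9, 47.2, 33.1 and 32.2 CPM in UPSMALL libraries and 25.3, 47.3, 32.4 and 27.3 CPM in DOWN libraries. Every UPBIG library lay above all 8 others, and replicate 2 was the highest library of UPSMALL and of DOWN. The fold of UPBIG over DOWN was 1.80 (log2 0.85 ± 0.18, adjusted p = 0.00279), and that of UPBIG over UPSMALL was 1.63 (log2 0.70 ± 0.18, adjusted p = 0.0250). UPSMALL over DOWN gave 0.15 ± 0.18, with a 95% interval of −0.21 to 0.50 (adjusted p = 0.802). The call against DOWN held without any 1 of the 12 libraries, with adjusted p between 0.000233 and 0.0129. The call against UPSMALL was lost without UPBIG replicate 2 (adjusted p = 0.0670), UPBIG replicate 4 (0.0901), UPSMALL replicate 1 (0.0741), UPSMALL replicate 3 (0.0791) or UPSMALL replicate 4 (0.0729).

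Ptgs1 and Tbxas1 showed estimates of opposite sign that did not pass. Ptgs1 (chromosome 2, 36230426 to 36252272, plus strand), the constitutive cyclooxygenase, had 32.2, 30.5, 38.7 and 30.9 CPM in UPBIG libraries, 49.9, 37.4, 31.7 and 55.9 CPM in UPSMALL libraries and 59.3, 41.7, 41.9 and 33.6 CPM in DOWN libraries. Its UPBIG libraries lay at the low end but overlapped both other groups, and UPBIG over DOWN gave a log2 fold change of −0.42 ± 0.18 (adjusted p = 0.133). Tbxas1 (chromosome 6, 38875404 to 39084585, plus strand), thromboxane synthase, had 95.5, 77.8, 51.3 and 64.3 CPM in UPBIG libraries, 77.9, 85.6, 65.8 and 58.8 CPM in UPSMALL libraries and 65.1, 59.4, 51.9 and 45.0 CPM in DOWN libraries. The groups overlapped, with a log2 fold change of 0.38 ± 0.17 for UPBIG over DOWN (adjusted p = 0.140) and also for UPSMALL over DOWN (adjusted p = 0.359). UPBIG over UPSMALL gave 0.0040 ± 0.17 for Tbxas1. Without UPBIG replicate 3, the lowest of its group, Tbxas1 passed against DOWN (log2 0.52, adjusted p = 0.0385).

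Neither prostaglandin E synthase passed a test. Ptges3 (chromosome 10, 128058954 to 128077272, plus strand) had 111, 115, 194 and 172 CPM in UPBIG libraries, 132, 114, 112 and 121 CPM in UPSMALL libraries and 136, 123, 169 and 136 CPM in DOWN libraries. UPBIG libraries held both the lowest and the highest of the 12 values, and UPBIG over UPSMALL gave a log2 fold change of 0.31 ± 0.16 (adjusted p = 0.326). Ptges (chromosome 2, 30889471 to 30929863, minus strand), the inducible microsomal synthase, had 1.93, 2.57, 1.52 and 0.750 CPM in UPBIG libraries, 3.08, 3.55, 1.74 and 3.38 CPM in UPSMALL libraries and 2.29, 1.06, 1.57 and 0.613 CPM in DOWN libraries. These values rest on 11 to 92 counts a library. The log2 fold change of UPSMALL over DOWN, the largest among the 10 genes in that comparison, was 1.08 ± 0.48 and did not pass (adjusted p = 0.351).

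**Figure D2:**
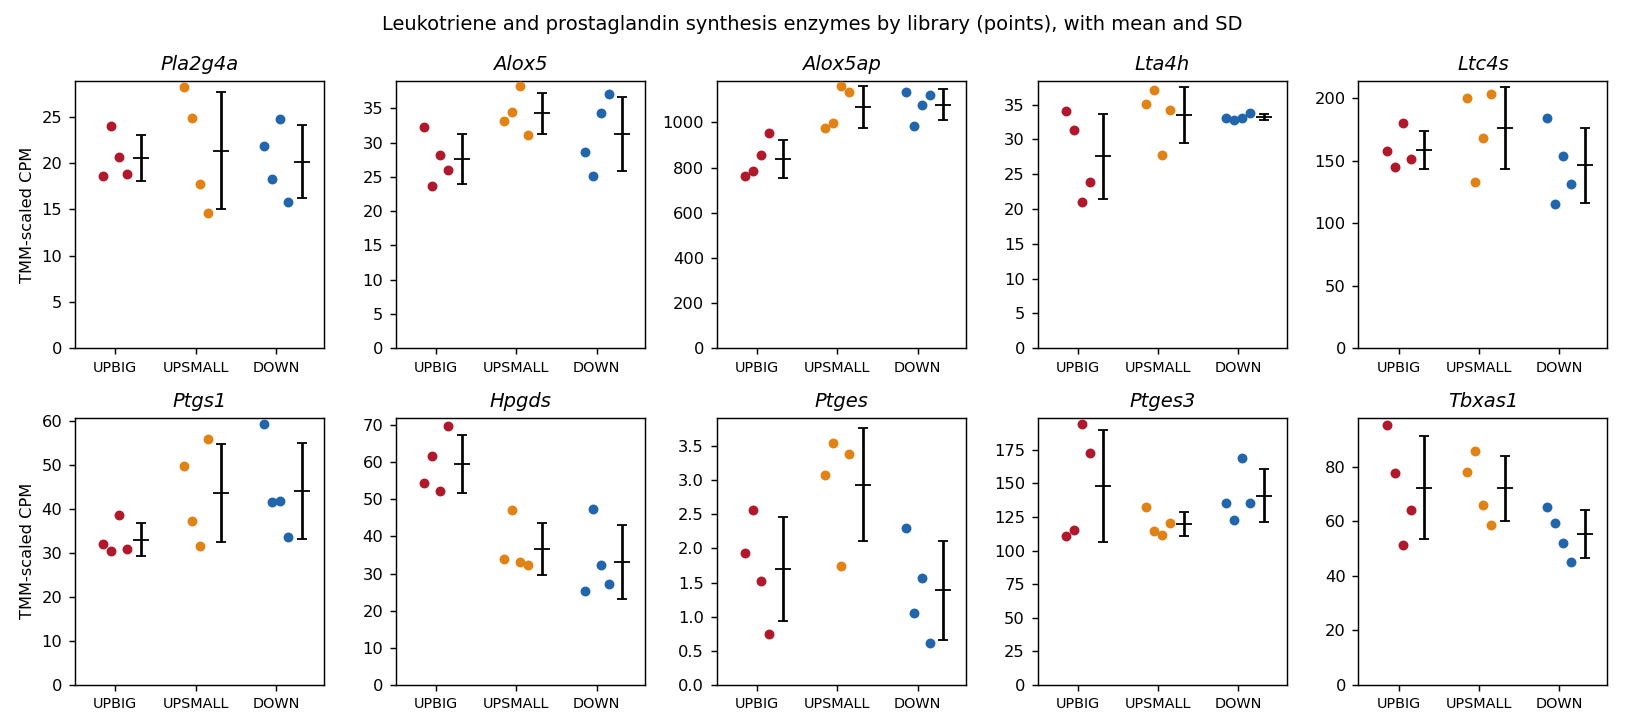
TMM-scaled CPM of each of the 10 genes in each library (points, replicates 1 to 4 from left to right within a group), with the group mean and SD beside them. UPBIG libraries of Hpgds (52.3 to 69.7 CPM) lie above all others and those of Alox5ap (761 to 952 CPM) below all others, while the other 8 genes overlap between UPBIG and both other groups.

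Counted together, 1 of the 10 genes rose in UPBIG over DOWN (Hpgds) and 1 fell (Alox5ap), where 9.03% of all tested genes were higher and 8.48% lower. The median log2 fold change of the 10 genes was 0.051, and that of all tested genes was −0.033. Alox5ap and Hpgds were also the only 2 of the 10 whose libraries did not overlap between UPBIG and DOWN, against 21.4% of all genes. Between UPBIG and UPSMALL, 1 gene rose (Hpgds) and 0 fell, where 3.22% of all genes were higher and 2.49% lower. The 10 genes had a median of −0.22 in that comparison (all genes −0.029), and libraries of the same 2 genes did not overlap, against 11.8% of all genes. In edgeR's test 0 of the 10 genes changed between UPSMALL and DOWN, where 0.594% of all genes were higher and 0.547% lower. Ptges and Tbxas1 had an unadjusted p under 0.05 there, and 0 of the 10 genes were called by DESeq2 or limma-voom. The libraries of 0 of the 10 genes were apart between UPSMALL and DOWN, against 8.25% of all genes. A joint test of any difference among the 3 groups called Hpgds (adjusted p = 0.00477) and Alox5ap (adjusted p = 0.0418), where 13.8% of all genes were called.

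The scaling between libraries set how many of the 10 genes were called. The transcripts of Lyz2, Ftl1 and Fth1 together held 26.5% to 29.1% of counts in UPBIG libraries, 15.5% to 23.8% in UPSMALL libraries and 19.5% to 22.0% in DOWN libraries. The TMM factors, which correct for such a difference in composition, were 0.858 to 0.896 in UPBIG, 0.992 to 1.17 in UPSMALL and 1.03 to 1.16 in DOWN. With library totals alone, the median log2 fold change of all genes moved to −0.36 for UPBIG over DOWN and −0.31 for UPBIG over UPSMALL. The calls over all genes moved with it, to 518 higher and 3237 lower in UPBIG over DOWN, against 1140 higher and 1070 lower with TMM. For UPBIG over UPSMALL, the totals alone gave 189 higher and 1433 lower, and TMM gave 406 higher and 314 lower. On that scale Alox5ap was at −0.69 over DOWN (adjusted p = 0.000392) and −0.63 over UPSMALL (adjusted p = 0.00232). Alox5, Lta4h and Ptgs1 then also fell in both comparisons, with log2 fold changes of −0.51, −0.59 and −0.73 over DOWN and of −0.59, −0.56 and −0.69 over UPSMALL. Hpgds stayed higher in UPBIG over DOWN (0.53, adjusted p = 0.0317) but lost the call over UPSMALL (0.43, adjusted p = 0.111).

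**Figure D3:**
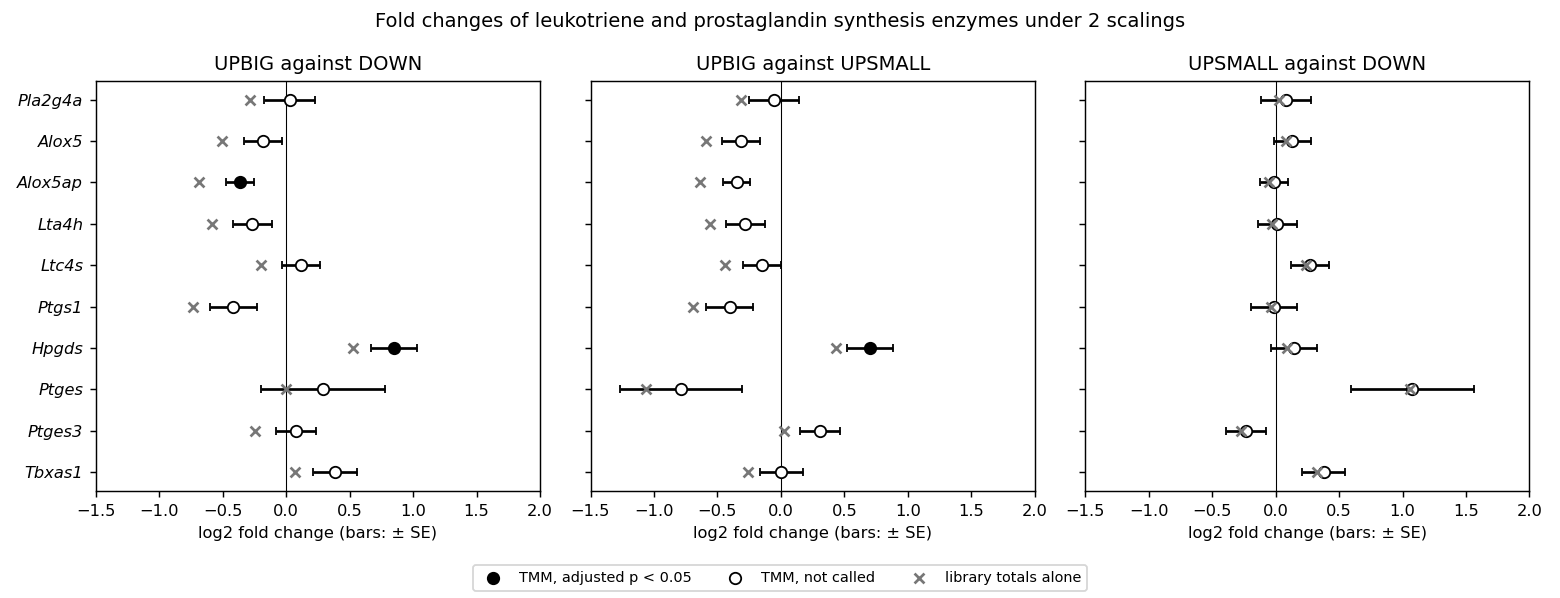
Log2 fold change of each of the 10 genes in the 3 comparisons, with TMM scaling (circles, bars ± SE, filled where the adjusted p was under 0.05) and with library totals alone (crosses). With totals alone the UPBIG values lie further left, as does the median of all genes (−0.36 over DOWN, −0.31 over UPSMALL), and Hpgds stays right of 0 in both.

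A ratio of 2 genes within 1 library needs no scaling between libraries. Of 12 two-sided exact permutation tests, 4 ratios in 3 comparisons, 0 passed after Benjamini-Hochberg adjustment. However, 4 libraries against 4 allow no p below 0.0286, so 1 ratio alone at that p cannot pass over 12 tests. The lack of a pass therefore does not show that a ratio was unchanged. The ratio of Hpgds to Tbxas1, the prostaglandin D2 against the thromboxane branch, was 0.866 ± 0.234 in UPBIG, 0.509 ± 0.0543 in UPSMALL and 0.604 ± 0.167 in DOWN (SD, n = 4 each). UPBIG lay above UPSMALL in every library, a log2 difference of 0.73 at the smallest p the design allows (exact permutation p = 0.0286, adjusted p = 0.343). The ratio of Ltc4s to Lta4h, the cysteinyl against the B4 branch, was 6.03 ± 1.86 in UPBIG, 5.33 ± 1.16 in UPSMALL and 4.40 ± 0.914 in DOWN, and its groups overlapped. Alox5ap counts were 30.9 ± 5.51 times those of Alox5 in UPBIG, 31.3 ± 3.52 times in UPSMALL and 35.1 ± 4.98 times in DOWN, and the smallest adjusted p among these 3 comparisons was 0.600. The ratio of Ptgs1 to Alox5 was 1.21 ± 0.164 in UPBIG, 1.30 ± 0.431 in UPSMALL and 1.47 ± 0.508 in DOWN. The ratio of Hpgds to Alox5ap, set up after their values were seen and so not tested, ran between 0.0611 and 0.0784 in UPBIG, 0.0284 and 0.0473 in UPSMALL, and 0.0223 and 0.0481 in DOWN.

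**Figure D4:**
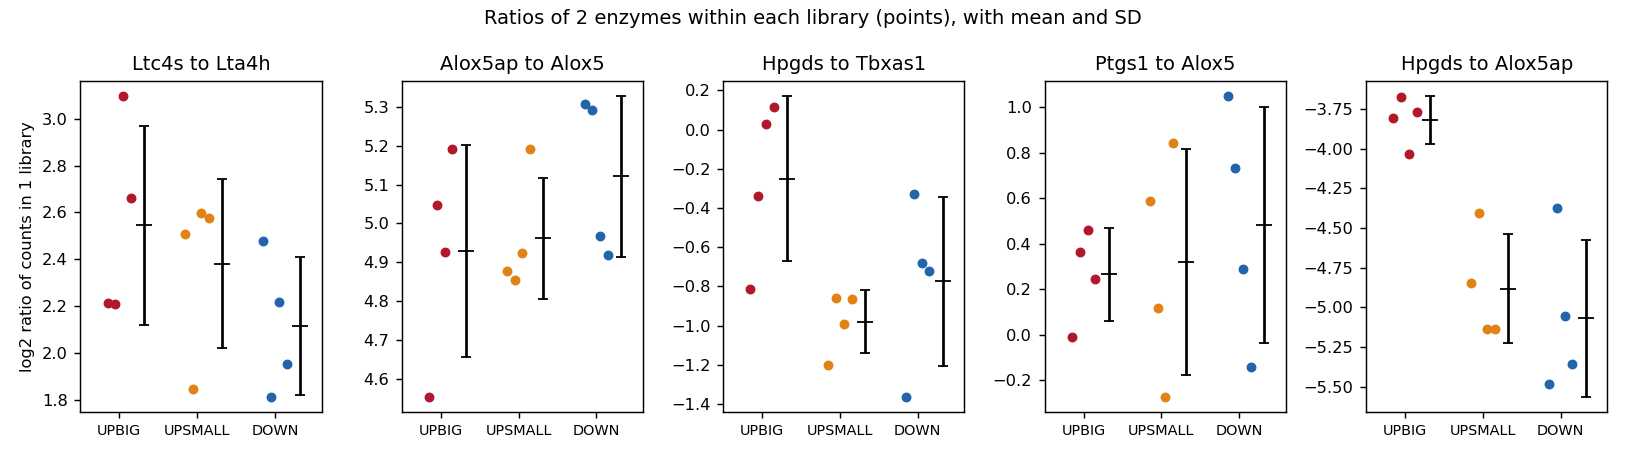
Log2 ratio of the counts of 2 genes within each library (points), with the group mean and SD. The 4 UPBIG libraries lie above all others for Hpgds to Alox5ap, a pair chosen after the values were seen, and above UPSMALL for Hpgds to Tbxas1 (log2 difference 0.73).

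The profiles most like those of the called genes were found among 6795 genes by the root-mean-square difference of centred log2 CPM over the 12 libraries. Closest to Alox5ap were Was (0.0994), Fads1 (0.104) and Rpa3 (0.111), where the median of the candidates was 0.329. Fads1, a fatty acid desaturase, averaged 17.7 ± 1.80 CPM in UPBIG, 24.6 ± 2.18 CPM in UPSMALL and 25.9 ± 2.91 CPM in DOWN (SD, n = 4 each). Means in the same order were 15.6, 20.1 and 18.3 CPM for Was and 13.9, 19.9 and 19.6 CPM for Rpa3. Closest to Hpgds were Ddhd1 (0.197), Fabp3 (0.204) and Gga2 (0.212), with a median of 0.523. Ddhd1, a phospholipase, averaged 174 ± 12.8 CPM in UPBIG, 118 ± 9.85 CPM in UPSMALL and 115 ± 16.0 CPM in DOWN. Means in that order were 25.4, 19.0 and 16.4 CPM for Fabp3 and 38.9, 27.5 and 23.7 CPM for Gga2. Because these genes were picked by profile, their likeness in group means follows from the choice. A shared function was not tested.

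Of 69 other genes of eicosanoid metabolism and signalling, 42 were tested. In UPBIG over DOWN 13 of the 42 rose and 6 fell, with a median log2 fold change of 0.053 and against 9.03% and 8.48% of all genes. In UPSMALL over DOWN, 2 rose (Mgll and Mgst2) and 1 fell (Hpgd), with a median of 0.039, against 0.594% and 0.547% of all genes. In UPBIG over UPSMALL 6 rose and 3 fell (median −0.0059), against 3.22% and 2.49% of all genes. Those that rose were Mgll, Pla2g2d, Lpcat3 (0.67 ± 0.13, adjusted p = 0.00383), Mgst1 (0.48 ± 0.11, 0.0154), Akr1b3 (0.38 ± 0.10, 0.0299) and Ptgir (0.96 ± 0.23, 0.0176), and those that fell were Dpep2, Cysltr1 and Fpr2 (−1.02 ± 0.27, 0.0379). Of these UPBIG over UPSMALL calls, that of Mgst1 was lost without UPSMALL replicate 3 (adjusted p = 0.0565). That of Ptgir was lost without UPBIG replicate 3 (0.0768) or UPSMALL replicate 3 (0.0535) or 4 (0.0570). That of Akr1b3 was lost without UPBIG replicate 1, 2 or 4 or UPSMALL replicate 1, 3 or 4 (0.0520 to 0.0984). That of Fpr2 was lost without UPBIG replicate 2 or 4, UPSMALL replicate 2, 3 or 4, or DOWN replicate 2 or 4 (0.0537 to 0.105). With library totals alone, Lpcat3 (0.40, adjusted p = 0.0665), Mgst1 (0.21, 0.181) and Akr1b3 (0.10, 0.548) also lost theirs. Akr1b3 also lost its call without a filter (0.37, 0.0743) and with only the 8 libraries compared (0.38, 0.0545), and Fpr2 with only those 8 (−1.02, 0.0684).

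Among phospholipases and lipases, 7 of 10 rose in UPBIG over DOWN and 0 fell, where 9.03% of all genes were higher and 8.48% lower. Mgll, monoacylglycerol lipase, which hydrolyses 2-arachidonoylglycerol, had 162, 190, 143 and 149 CPM in UPBIG libraries, 58.9, 46.1, 53.3 and 36.9 CPM in UPSMALL libraries and 16.1, 18.3, 13.4 and 17.2 CPM in DOWN libraries. The 3 groups were fully apart, with log2 fold changes of 3.31 ± 0.16 for UPBIG over DOWN (adjusted p = 6.85e-11), 1.72 ± 0.15 for UPBIG over UPSMALL (4.72e-07) and 1.59 ± 0.15 for UPSMALL over DOWN (1.77e-05). Pla2g2d, a secreted phospholipase A2, had 19.6, 12.4, 15.1 and 24.0 CPM in UPBIG libraries, 3.35, 2.50, 1.38 and 1.25 CPM in UPSMALL libraries and 0.909, 1.97, 5.58 and 1.42 CPM in DOWN libraries. It rose in UPBIG over DOWN (2.85 ± 0.49, adjusted p = 0.000918) and over UPSMALL (3.08 ± 0.49, adjusted p = 0.00141). Pla2g15, the lysosomal phospholipase A2, averaged 69.5 ± 17.0 CPM in UPBIG and 45.8 ± 4.50 CPM in DOWN (0.60 ± 0.16, adjusted p = 0.0127), a call lost without UPBIG replicate 1 (0.42, adjusted p = 0.0592) and with library totals alone (0.27, adjusted p = 0.204). Pla2g7, which hydrolyses platelet-activating factor, gave 0.14 ± 0.19 for UPBIG over DOWN (adjusted p = 0.676). Lpcat3, which puts arachidonate back into phospholipids, was the 1 of 4 reacylation genes to rise, at 61.9 ± 5.70 CPM in UPBIG and 33.9 ± 4.37 CPM in DOWN (0.87 ± 0.13, adjusted p = 0.000144).

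Among 11 genes that convert, export or regulate leukotrienes, 2 rose and 1 fell in UPBIG over DOWN (all genes 9.03% and 8.48%). Mgst2, a microsomal glutathione transferase that can make leukotriene C4 as Ltc4s does, had 22.2, 30.7, 30.5 and 38.4 CPM in UPBIG libraries, 16.3, 19.7, 19.7 and 28.2 CPM in UPSMALL libraries and 10.1, 8.76, 8.11 and 7.73 CPM in DOWN libraries. It rose in UPBIG over DOWN (1.81 ± 0.20, adjusted p = 3.02e-06) and in UPSMALL over DOWN (1.27 ± 0.19, adjusted p = 0.00221), with every DOWN library below the other 8. Its relative Mgst1 rose in UPBIG over DOWN (0.54 ± 0.11, adjusted p = 0.00264), but not with library totals alone (0.22, adjusted p = 0.110). Mgst3 gave −0.14 ± 0.11 (adjusted p = 0.444), and fell with library totals alone (−0.46, adjusted p = 0.00467). Dpep2, a dipeptidase known to convert leukotriene D4 to E4, had 105, 111, 90.5 and 84.3 CPM in UPBIG libraries, 156, 180, 193 and 190 CPM in UPSMALL libraries and 207, 213, 178 and 166 CPM in DOWN libraries. It fell in UPBIG over DOWN (−0.97 ± 0.12, adjusted p = 1.44e-05) and over UPSMALL (−0.88 ± 0.12, adjusted p = 0.000103), and UPBIG overlapped neither group. Abcc1, a transporter of leukotriene C4, gave −0.28 ± 0.16 over DOWN (adjusted p = 0.264), and also fell with library totals alone (−0.60, adjusted p = 0.0144).

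Among 9 other prostanoid enzymes and transporters, 2 rose and 1 fell in UPBIG over DOWN (all genes 9.03% and 8.48%). Hpgd, the dehydrogenase that inactivates prostaglandins, had 22.6, 9.86, 22.0 and 19.0 CPM in UPBIG libraries, 25.3, 31.1, 35.5 and 32.3 CPM in UPSMALL libraries and 61.6, 47.4, 90.7 and 69.3 CPM in DOWN libraries. The 3 groups did not overlap, and Hpgd fell in UPBIG over DOWN (−1.87 ± 0.23, adjusted p = 2.97e-05) and in UPSMALL over DOWN (−1.11 ± 0.23, adjusted p = 0.0224). The UPSMALL call was lost without UPSMALL replicate 1 (adjusted p = 0.0942), 2 (0.0618) or 4 (0.0557), or without DOWN replicate 3 (0.0854). UPBIG over UPSMALL gave −0.76 ± 0.23 for Hpgd (adjusted p = 0.0645), which missed the threshold, but it passed with library totals alone (−1.05, adjusted p = 0.00595), DESeq2 (−0.74, 0.0197), limma-voom (−0.97, 0.0445), no filter (−0.76, 9.60e-05) and the stricter filter (−0.77, 0.0475). The genes that rose were Akr1b3, an aldose reductase with prostaglandin F synthase activity (0.68 ± 0.10, adjusted p = 8.98e-05), and Prxl2b, a prostamide and prostaglandin F synthase (0.61 ± 0.20, adjusted p = 0.0431), the second of which was named after its values were seen. The call of Prxl2b was lost in each fit that left out a library (adjusted p of 0.0511 to 0.140), except those without UPBIG replicate 3, UPSMALL replicate 4 or DOWN replicate 2. It was also lost with library totals alone (0.28, adjusted p = 0.337), limma-voom (0.53, 0.0605) and only the 8 libraries compared (0.61, 0.0656). Ptgs2, the inducible cyclooxygenase, was near the limit of detection in 11 libraries, with 6, 7, 11 and 0 counts in UPBIG libraries, 5, 4 and 2 counts in UPSMALL replicates 1 to 3, and 27, 16, 19 and 3 counts in DOWN libraries. UPSMALL replicate 4 had 338 counts, and Ptgs2 passed no test (UPBIG over DOWN −1.05 ± 1.44, adjusted p = 0.691). Alox15, a lipoxygenase of another branch, had 0 counts in 10 libraries and 5 and 1 counts in DOWN replicates 1 and 4, and did not pass the filter. Ptgds was not found by name in the count table.

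Among 7 eicosanoid receptors tested, 1 rose and 4 fell in UPBIG over DOWN (all genes 9.03% and 8.48%). Cysltr1, the receptor for leukotriene D4, had 3.05, 4.18, 3.98 and 7.23 CPM in UPBIG libraries, 10.4, 8.94, 10.1 and 9.88 CPM in UPSMALL libraries and 14.8, 14.8, 10.1 and 11.1 CPM in DOWN libraries. It fell in UPBIG over DOWN (−1.46 ± 0.25, adjusted p = 0.000346) and over UPSMALL (−1.10 ± 0.25, adjusted p = 0.00979), with every UPBIG library below the other 8. Ltb4r1, the high-affinity leukotriene B4 receptor, had 0, 0, 5 and 0 counts in UPBIG libraries, 3, 7, 24 and 17 counts in UPSMALL libraries and 27, 39, 18 and 47 counts in DOWN libraries, and it fell in UPBIG over DOWN (adjusted p = 0.00686). Fpr2, a receptor for lipoxin A4 and formyl peptides, averaged 15.3 ± 6.85 CPM in UPBIG and 42.0 ± 7.03 CPM in DOWN (−1.45 ± 0.27, adjusted p = 0.00169). Ptgir, the prostacyclin receptor, averaged 28.7 ± 8.79 CPM in UPBIG and 15.0 ± 4.13 CPM in DOWN (0.93 ± 0.23, adjusted p = 0.00872), and like Fpr2 it was named after its values were seen. Ptger2, an E-type prostanoid receptor, gave −0.11 ± 0.16 (adjusted p = 0.709). Ptger4, another E-type receptor, averaged 13.0 ± 3.86 CPM in UPBIG and 21.3 ± 5.31 CPM in DOWN (−0.71 ± 0.22, adjusted p = 0.0339). That call was lost without UPBIG replicate 1 (adjusted p = 0.0850), 2 (0.0730) or 4 (0.109), or without DOWN replicate 2 (0.0881), 3 (0.0623) or 4 (0.124).

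**Figure D5:**
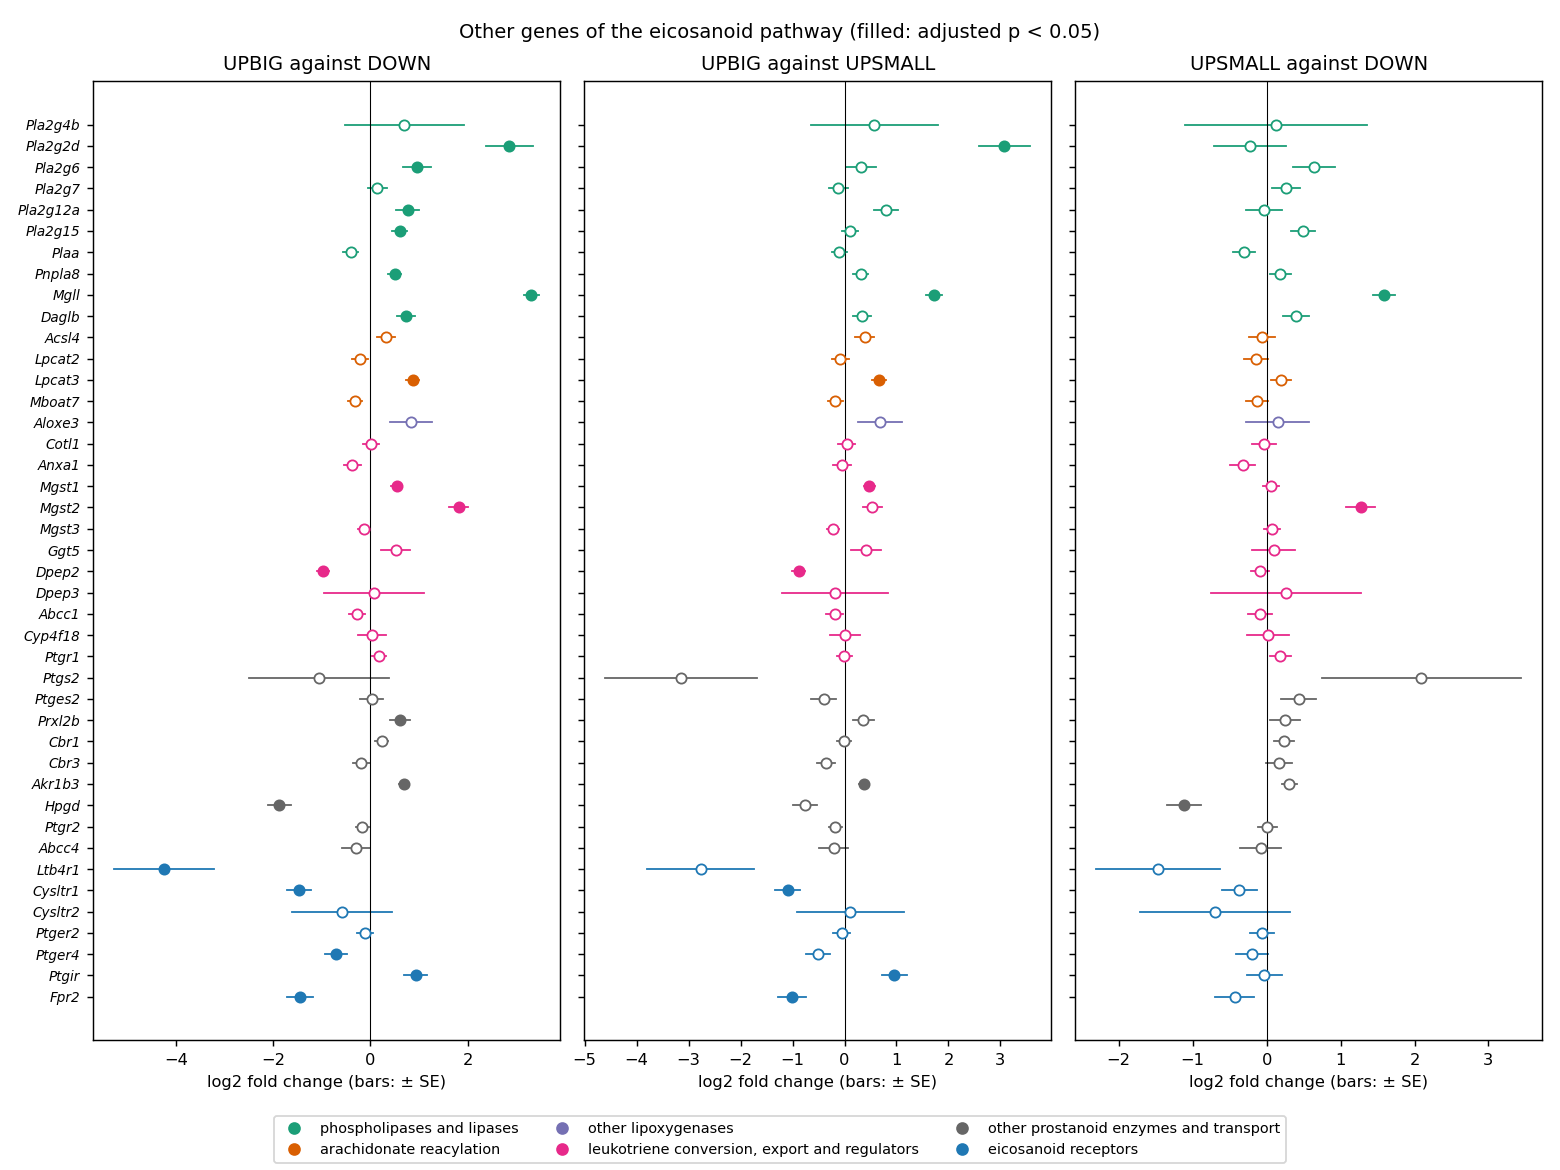
Log2 fold change (bars ± SE, filled where the adjusted p was under 0.05) of other tested genes of eicosanoid metabolism and signalling, grouped by role. In UPBIG over DOWN, filled points right of 0 hold 7 of 10 phospholipases and lipases, and filled points left of 0 hold 4 of 7 receptors. Of all tested genes, 9.03% were higher and 8.48% lower in that comparison.

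The labelled cell type was checked against markers, and marker sums are given because several of the 10 genes are also known from other leukocytes. All 14 markers of resident alveolar macrophages were present, with a summed level of 16675 to 20949 CPM in UPBIG libraries, 15063 to 18474 CPM in UPSMALL libraries and 10740 to 15139 CPM in DOWN libraries. In UPBIG over DOWN 9 of these 14 markers rose and 1 fell, where 9.03% of all genes were higher and 8.48% lower, the background for the other marker counts of UPBIG over DOWN as well. In UPBIG over UPSMALL 7 rose and 1 fell, against 3.22% and 2.49% of all genes. In UPSMALL over DOWN 4 rose and 0 fell, against 0.594% and 0.547% of all genes. Car4 averaged 17.9 ± 11.5 CPM in UPBIG, 127 ± 45.8 CPM in UPSMALL and 88.1 ± 21.3 CPM in DOWN. The 10 markers of monocyte-derived macrophages summed to 12412 to 25270 CPM in UPBIG, 13336 to 21013 CPM in UPSMALL and 15238 to 20852 CPM in DOWN, and 0 rose and 4 fell in UPBIG over DOWN. Mast cells and basophils are known to express Hpgds, Alox5ap and Ltc4s. Of their 10 markers only Kit and Hdc were found by name in the count table, which lists no gene with a total of 0. Those absent were Cpa3, Mcpt4, Mcpt8, Cma1, Tpsb2, Fcer1a, Ms4a2 and Gata2. Kit and Hdc summed to 0.0682 to 0.538 CPM in UPBIG, 0.178 to 0.899 CPM in UPSMALL and 2.12 to 5.93 CPM in DOWN. Kit averaged 0.0903 ± 0.0603 CPM in UPBIG and 2.98 ± 1.75 CPM in DOWN, where it made up most of the sum, while Hdc did not pass the filter and overlapped between the groups. Neutrophil markers (8 of 9 found in the count table, Ly6g absent) summed to 383 to 420 CPM in UPBIG, 163 to 223 CPM in UPSMALL and 134 to 175 CPM in DOWN. Of the 5 neutrophil markers tested, 2 rose (S100a8 and Cxcr2) and 0 fell in UPBIG, over DOWN and also over UPSMALL, where 3.22% of all genes were higher and 2.49% lower. S100a8 alone made up 354 to 387 CPM of the sum in UPBIG. Cxcr2 averaged 16.4 ± 1.71 CPM in UPBIG, 2.88 ± 1.13 CPM in UPSMALL and 1.35 ± 0.686 CPM in DOWN. S100a9 averaged 2.55 ± 2.34 CPM in UPBIG, 1.36 ± 1.48 CPM in UPSMALL and 7.26 ± 4.36 CPM in DOWN. The 3 eosinophil markers found in the count table (Prg2 and Epx were absent) summed to 13.0 to 44.2 CPM in UPBIG, 4.45 to 17.5 CPM in UPSMALL and 2.31 to 8.01 CPM in DOWN, mostly Ear6. Dendritic cell markers summed to 7.32 to 13.7 CPM in UPBIG, 33.4 to 91.6 CPM in UPSMALL and 67.4 to 178 CPM in DOWN, and T and NK cell markers to 4.17 to 24.3 CPM in UPBIG, 1.76 to 7.70 CPM in UPSMALL and 27.9 to 101 CPM in DOWN. In UPBIG over DOWN, 6 of 8 dendritic cell markers and 7 of 8 tested T and NK cell markers fell. In UPBIG over UPSMALL, 2 dendritic cell markers fell and 1 T and NK cell marker rose. In UPSMALL over DOWN, 1 dendritic cell marker and 5 T and NK cell markers fell, against 0.547% of all genes. B cell markers summed to 0.750 to 8.29 CPM in UPBIG, 1.75 to 6.85 CPM in UPSMALL and 0.0433 to 17.5 CPM in DOWN, and epithelial markers to 17.2 to 260 CPM in UPBIG, 12.0 to 38.5 CPM in UPSMALL and 9.20 to 16.1 CPM in DOWN. The epithelial sum varied widely within UPBIG (92.3 ± 114 CPM, SD). Of 4325 counts of the epithelial marker Scgb1a1 in UPBIG, 3553 came from 1 library. Platelet markers, of cells known for Tbxas1 and Ptgs1, summed to 11.3 to 39.3 CPM in UPBIG, 18.4 to 34.9 CPM in UPSMALL and 7.66 to 36.4 CPM in DOWN. Nearly all of this sum was Pf4, at means of 19.6 CPM in UPBIG, 24.2 CPM in UPSMALL and 23.5 CPM in DOWN. Ppbp, Itga2b and Gp1ba had 16, 36 and 28 counts over all libraries and did not pass the filter. Gp1bb and Gp9 were absent from the count table, so the sum alone does not show platelet RNA. The part of resident or monocyte-derived macrophage RNA in the differences of Hpgds and Alox5ap was not tested. Nor was that of mast cell, basophil, neutrophil, eosinophil, epithelial, dendritic, T or NK cell RNA.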

How the data were processed

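Smart-seq libraries of sorted mouse alveolar macrophages (12 in all, 4 a group) were analysed. The deposited table holds expected counts per gene, which the authors made with STAR and RSEM on mm10, per the submitters' processing notes. For these tools, version, annotation and strand setting were not given in the sources used here. In the table, 13.8% of values are not whole, and no gene has a total of 0. Symbols matched 26775 of 26855 identifiers, and exon lengths 26808. Libraries were made from lysed cells without molecular identifiers, so amplification is part of every value, and library totals (17109669 to 23282621) limit its precision.

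Counts were rounded and filtered with filterByExpr, and edgeR 4.0.16 (R 4.3.3) fitted the 12 libraries in 1 model, with TMM scaling, group as the only term and robust quasi-likelihood tests. Benjamini-Hochberg adjusted p under 0.05 over 12625 genes counted as a call. Standard errors were derived from the fold change and F, and a 95% interval spans 1.96 of these either side. The code was tested on simulated data. Ratios of 2 genes used counts plus 0.5 and exact permutation tests. Comparisons with UPBIG share its libraries, as do those with DOWN and UPSMALL, so they are not independent.

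The 10 genes and the lists of pathway and marker genes were chosen with earlier results of these data known. Named were all 10 genes, 13 set pathway genes and, in each comparison, up to 6 called pathway genes with the smallest p. For each of the 10 genes that the joint test called, the 3 genes of closest profile were added, from those whose log2 CPM averaged 3 or more. Alternatives were other scalings, DESeq2 1.42.0, limma-voom (limma 3.58.1), other filters (none, or 5 CPM in 4 libraries), a replicate block, only the 8 libraries compared, a pseudocount of 5 for ratios, and leaving out each library.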

Additional observations from a re-analysis of the deposited data

Results flagged for a closer look

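Among 93 pairs of a gene and a group, 3 had a library far from the other 3 by Dixon's test at its 95% critical value, and chance gives about 1 in 20. Hpgds in UPSMALL replicate 2 was at 47.2 CPM, and the other UPSMALL libraries were at 32.2 to 33.9 CPM (gap over range 0.890). Ptgs2 in UPSMALL replicate 4 was at 12.4 CPM, on 338 counts, and the other UPSMALL libraries were at 0.0890 to 0.266 CPM. Ltb4r1 in UPBIG replicate 3 was at 0.293 CPM, on 5 counts, and the other UPBIG libraries had 0.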

How the results depend on the processing

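Hpgds kept its call in UPBIG over DOWN under every alternative run. Alox5ap kept its call over DOWN in all except 5 fits that left out a library. With library totals alone, the genes changed were 3755 for UPBIG over DOWN (2210 with TMM), 1622 for UPBIG over UPSMALL (720 with TMM) and 3021 in the joint test (1736 with TMM), and 5 and 4 of the 10 genes changed in the first 2 of these. On that scale these estimates changed sign for UPBIG over DOWN: Pla2g4a −0.28, Ltc4s −0.20, Ptges −0.0043, Ptges3 −0.24 and Pla2g7 −0.17. So did Tbxas1 (−0.26) and Pla2g15 (−0.16) for UPBIG over UPSMALL and Lta4h (−0.031) for UPSMALL over DOWN. DESeq2, limma-voom and the replicate block each called 2 of the 10 genes for UPBIG over UPSMALL, Alox5ap being the added one (log2 −0.34, −0.33 and −0.35). For UPSMALL over DOWN, 144 genes changed, against 393 with DESeq2, 226 with limma-voom, 460 without a filter and 275 with the block. The cause was not tested. Of 237 values of the 10 genes under settings other than leaving out a library, 213 kept their direction and their side of the threshold, 1 lost its call, 11 gained one and 12 changed sign. Of 360 values that left out a library, 326 kept both, 10 lost a call, 1 gained one and 23 changed sign.

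Further estimates changed sign. Tbxas1 for UPBIG over UPSMALL was at −0.073 with limma-voom, −0.0035 without a filter, −0.0046 with the stricter filter and −0.014 with the block. Ptger2 was at 0.034 with limma-voom in that comparison. For UPSMALL over DOWN, Alox5ap was at 0.0013 and Ptgs1 at 0.0022 without a filter, and Ptgs2 at −1.16 and Pla2g2d at 0.065 with limma-voom.

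Same-numbered libraries deviated together in part (correlations of 0.038 to 0.13, −0.029 to 0.15 and −0.013 to 0.14 in the 3 comparisons). The same number was the best match in 4, 2 and 3 of 4 cases. These correlations do not settle whether the numbers mark pairs. No label says that they do, so the main fit does not pair libraries, and the replicate block is given beside it. The block gave 2607 changed genes for UPBIG over DOWN and 1025 for UPBIG over UPSMALL, and added Tbxas1 as a call for UPBIG over DOWN (log2 0.37, adjusted p = 0.0329). For UPBIG over UPSMALL the block added Alox5ap (−0.35, adjusted p = 0.0142) and Hpgd (−0.81, adjusted p = 0.00873).

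Leaving out 1 library gave 1 to 3 of the 10 genes changed for UPBIG over DOWN, 0 to 1 for UPBIG over UPSMALL, 5 to 10 pathway genes for UPBIG over UPSMALL (9 in all libraries) and 58 to 179 genes for UPSMALL over DOWN. Signs turned without 1 library within these ranges. For UPBIG over DOWN the ranges were −0.059 to 0.15 for Pla2g4a, −0.081 to 0.19 for Ptges3 and −0.016 to 0.28 for Pla2g7. For UPBIG over UPSMALL they were −0.19 to 0.11 for Pla2g4a, −0.16 to 0.14 for Tbxas1, −3.57 to 0.97 for Ptgs2, −0.23 to 0.045 for Pla2g7, −0.069 to 0.22 for Pla2g15 and −0.17 to 0.052 for Ptger2. For UPSMALL over DOWN they were −0.075 to 0.24 for Pla2g4a, −0.055 to 0.033 for Alox5ap, −0.036 to 0.095 for Lta4h, −0.15 to 0.17 for Ptgs1, −2.01 to 2.49 for Ptgs2, −0.15 to 0.058 for Ptger2, −0.52 to 0.56 for Pla2g2d, −0.0042 to 0.14 for Mgst1 and −0.19 to 0.12 for Ptgir. Both turns of Ptgs2 came without UPSMALL replicate 4. The ratios ranged over −0.021 to 0.28 for Ltc4s to Lta4h, −0.12 to 0.092 for Alox5ap to Alox5 and −0.25 to 0.12 for Ptgs1 to Alox5 in UPBIG over UPSMALL, and −0.37 to 0.034 for Ptgs1 to Alox5 in UPSMALL over DOWN; 3 libraries against 4 allow no p below 0.0571. Ptges gave no value under the stricter filter. With 11 to 92 counts a library, depth limits Ptges most among the 10 genes.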
